A study of Mus musculus with 10 samples.

Results

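The replication-dependent histone genes supply the core and linker histones that package newly made DNA. They were taken as every gene of the deposited expression table whose symbol begins with Hist1h, Hist2h, Hist3h or Hist4h, without regard to level or difference. This gave 61 of the 18586 rows, namely 4 H1, 15 H2a, 17 H2b, 12 H3 and 13 H4 genes. By cluster, 50 belonged to Hist1, 8 to Hist2, 2 to Hist3 and 1 to Hist4. The testis histone genes Hist1h1t, Hist1h2aa and Hist1h2ba had no row in the table.

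Expression was measured by poly(A) RNA-seq in 10 libraries of primary mouse tongue epithelial cultures. All mice carried Krt14-CreERT, LSL-rtTA and the tetON_H2B-GFP reporter, and EY mice carried tetON_E6-E7 and tetON_YAP1S127A in addition, which encode the HPV oncogenes and a constitutively active YAP1. Tamoxifen injected into the tongue activates Cre in Krt14-expressing basal cells, and doxycycline then induces the tetON transgenes. Epithelial cells were isolated 15 days after induction, from adult littermates by the study's methods. They were cultured with doxycycline to keep the transgenes on, sorted for GFP and returned to culture. The methods describe the sort for EY cells, and the study's results name both N and EY cells. The 6 EY libraries were 2 each of the lines EY3960, EY4028 and EY4174, whereas the 4 N libraries, which carry neither oncogene, all came from line N4172. Genotype and line therefore cannot be told apart, and p-values measure the spread between libraries. The study describes its replicates as biological, while the labels do not say whether the libraries of a line came from separate animals or cultures. Because these are bulk samples, fewer cells with a transcript and less of it per cell cannot be told apart.

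Transcripts of these genes normally end in a short stem-loop in place of a poly(A) tail, and the stem-loop binding protein (SLBP) carries them through processing, export and translation. They are made in S phase, when new chromatin has to be assembled, and are degraded when replication ends. Some histone genes also give transcripts with a poly(A) tail, in particular in cells that have left the cycle. A library selected on poly(A) therefore samples an unusual part of the histone transcripts, and levels here are those of the selected RNA. By the study's methods both genotypes carry the H2B-GFP reporter, a human H2B fused to GFP. The deposited EY columns have a letter H after EY in their names, and the N columns have none. What the letter stands for was not settled here. Whether reads of the reporter enter any H2b row, in either genotype, was not tested.

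The 3′ end sequences are shown first because the stem-loop is the feature that sets these transcripts apart from others in a poly(A) library. A 16-base stem-loop was found in a GENCODE M21 (GRCm38) transcript of 43 of the 61 genes and was absent from the annotated transcripts of 18. Among 58732 other protein-coding transcripts, 79 (0.135%) held it. The 43 genes had 8 distinct forms, and 24 genes shared 1 of them. The windows below are those of the 3 H2b genes that differ most between EY and N and of the abundant H4 gene Hist1h4i, each with 5 bases on either side and with the stem-loop in capitals.
Hist1h2bm: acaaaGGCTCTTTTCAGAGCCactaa
Hist1h2bf: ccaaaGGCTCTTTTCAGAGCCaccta
Hist1h2bb: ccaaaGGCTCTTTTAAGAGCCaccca
Hist1h4i: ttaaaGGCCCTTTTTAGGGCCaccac
Hist1h2bm and Hist1h2bf carried the most common form. The annotated transcript ended 46 bases after the stem-loop in Hist1h2bm, 29 bases after it in Hist1h2bf and 23 bases after it in Hist1h2bb, whereas that of Hist1h4i ran on for 330 bases.

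The upstream regions of the 3 H2b genes are shown for the same reason, that these genes carry the main difference. They are the 250 bases before the RefSeq start (GRCm38.p6), all on chromosome 13. Capitals mark the octamer ATTTGCAT, an element typical of H2B promoters that OCT1 binds, the CCAAT box and the TATA box TATAAA. The letters are marked on either strand and at any position, and their use as elements was not tested. In Hist1h2bf the TATA letters lie on the other strand, in the part far from the start.
Hist1h2bm (chr13:21721794-21722043, plus strand): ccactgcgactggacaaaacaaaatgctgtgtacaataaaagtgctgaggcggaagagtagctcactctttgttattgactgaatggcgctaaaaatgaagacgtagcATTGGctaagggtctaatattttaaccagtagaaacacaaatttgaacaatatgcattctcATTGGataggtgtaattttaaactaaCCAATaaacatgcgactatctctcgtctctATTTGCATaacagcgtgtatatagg
Hist1h2bf (chr13:23574208-23574457, minus strand): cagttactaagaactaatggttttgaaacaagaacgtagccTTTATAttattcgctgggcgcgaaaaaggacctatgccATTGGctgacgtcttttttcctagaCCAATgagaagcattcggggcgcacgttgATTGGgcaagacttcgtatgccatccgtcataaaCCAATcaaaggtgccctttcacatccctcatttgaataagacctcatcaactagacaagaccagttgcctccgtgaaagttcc
Hist1h2bb (chr13:23746484-23746733, plus strand): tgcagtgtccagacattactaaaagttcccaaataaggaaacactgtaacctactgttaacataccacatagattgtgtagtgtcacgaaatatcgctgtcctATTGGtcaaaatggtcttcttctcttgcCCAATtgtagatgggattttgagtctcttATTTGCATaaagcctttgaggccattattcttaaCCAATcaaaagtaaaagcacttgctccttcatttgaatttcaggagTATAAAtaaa
Of the 60 histone genes matched to a RefSeq gene, 54 had a promoter entry, in 55 windows that run from 250 bases before the start to 50 after it. ATTTGCAT lay in 12 of these 55 windows and in 1.74% of all 32851 windows of the same length. These were 6 of 13 H2a and 6 of 16 H2b windows, and none of the H1, H3 or H4 windows. Hist1h2bm and Hist1h2bb held the octamer, and Hist1h2bf did not. Of the other 13 H2b windows, 4 held it. CCAAT lay in all 16 H2b windows and in 46 of the 55 (37.41% of all windows), and TATAAA in 30 of the 55 (13.62%). GGAATG, the core motif of the TEAD factors through which YAP acts, lay in 3 of the 55 windows (14.66% of all) and in none of the 16 H2b windows. The E2F forms TTTGGCGC and TTTCCCGC lay in 0 and 1 of the 55 windows (0.51% and 1.07% of all). Other forms of the E2F site were not searched, in the windows or in the sequences above. The counts therefore do not show that E2F sites are absent from these genes, the 3 H2b genes included. No motif searched here was held by the 3 H2b genes and lacking in the other H2b genes.

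The labels were checked against genes that bear on them. Yap1 was at 34.7 to 57.1 TPM in EY and 17.2 to 20.9 TPM in N, a log2 difference of 1.17 ± 0.14 (SE, n = 6 and 4; limma, adjusted p = 0.000173), and the sources used here do not say whether reads of the transgene count towards it. Keratinocyte markers were present in every library, with summed levels of 4291 to 7246 TPM over 8 genes in EY and 5284 to 5973 TPM in N. Of 7 fibroblast markers 2 were in the table and summed to at most 0.174 TPM in EY and 0.748 TPM in N. Endothelial (3 of 4 in the table) and skeletal muscle markers (1 of 5) summed to at most 0.606 TPM in any library. Immune markers (4 of 7) summed to 29.4 to 72.0 TPM in EY and 42.2 to 69.1 TPM in N, nearly all of it Cd68, which many cell types use for lysosomes, while Ptprc, the pan-leukocyte marker, was at most 0.347 TPM. From 10852 to 11522 genes reached 1 TPM in a library, and mitochondrial transcripts took 14.1 to 20.5% of the TPM.

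TPM is a level per transcript length scaled to a common sum in each library, so genes can be compared with one another on it. Read depth cannot be read from it, and no counting interval can be given. Most histone genes were at a low level. Of the 61, 56 stayed under 20 TPM in every library. In N the highest means were those of Hist1h4i (26.8 ± 1.82 TPM, SD, n = 4), which encodes H4, and Hist1h2bc (25.3 ± 9.90 TPM), which encodes H2B, and these did not differ beyond the spread of Hist1h2bc. The next was Hist1h2af at 7.34 ± 3.97 TPM. In EY the order was led by 3 H2b genes that were near 1 TPM in N, Hist1h2bm at 327 ± 226 TPM (n = 6), Hist1h2bf at 231 ± 166 TPM and Hist1h2bb at 147 ± 106 TPM. Hist1h4i (26.9 ± 14.4 TPM) and Hist1h2bc (23.0 ± 6.81 TPM) followed, and all other genes had means under 10 TPM.

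**Figure D1:**
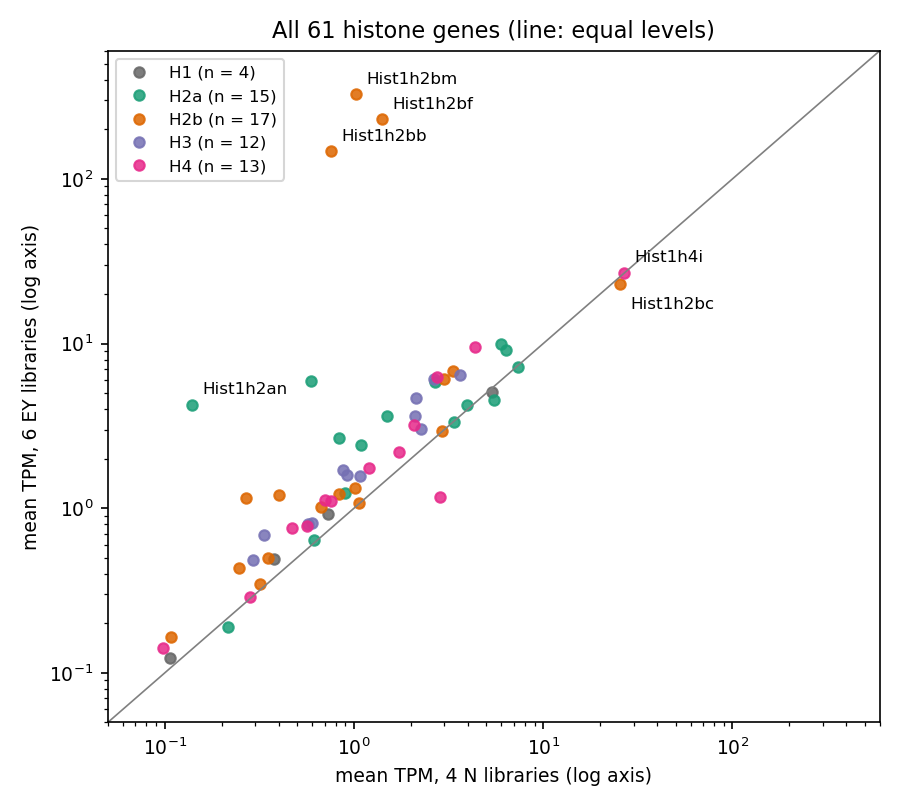
Mean TPM of each of the 61 histone genes over the 4 N libraries (x axis, log scale) and the 6 EY libraries (y axis, log scale), coloured by class, with a line at equal levels. Hist1h2bm, Hist1h2bf and Hist1h2bb stand apart at 147 to 327 TPM in EY and about 1 TPM in N, while Hist1h4i and Hist1h2bc lie near the line.

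Differences between groups were tested on log2(TPM + 1) with limma for the 11630 genes that reached 1 TPM in at least 4 libraries. Of the histone genes 42 passed this filter, 1 H1, 13 H2a, 11 H2b, 8 H3 and 9 H4. The 19 that did not had mean levels of 0.117 to 0.878 TPM and never exceeded 3.17 TPM. Among the 42, 20 passed with fewer than 4 N libraries at 1 TPM, and Hist1h2an, Hist1h2bb, Hist1h4a and Hist2h2be passed with no N library at that level. Genes that pass only through the higher group had to differ, so the counts below describe the tested genes and are not evidence about the class. A gene was called at an adjusted p under 0.01 (Benjamini-Hochberg over all 11630) with a log2 difference beyond 1 in size.

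Setting EY beside N asks which histone transcripts differ between cultures with and without the oncogenes. Hist1h2bb, Hist1h2bf and Hist1h2bm, all encoding the core histone H2B, were the histone genes called, and all were higher in EY, by log2 differences of 5.85 to 6.83. No histone gene was called lower. The 3 genes called higher were 7.1% of the 42 tested, against 1.85% of all genes tested, and for lower calls the figures were 0 of 42 against 1.70%. In 8 histone genes (19.0%) every EY library lay above every N library, against 11.3% of all genes tested, and in none did every EY library lie below, against 9.10%. The 8 were Hist1h2ae, Hist1h2ai, Hist1h2an, Hist1h3c, Hist2h2be and the 3 H2b genes. The median log2 difference over the 42 genes was 0.46, and over all genes tested it was 0.03. By class the medians were 0.62 for H2a, 0.73 for H2b, 0.53 for H3 and 0.29 for H4. The log2 difference was above 0 in 37 of the 42 genes, and the limit set by the filter applies to this count as well.

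Hist1h2bm had the highest level of the 3. Its values were 517 and 582 TPM in EY3960, 373 and 384 TPM in EY4028, 53.0 and 54.2 TPM in EY4174, and 0.675, 0.453, 1.40 and 1.58 TPM in the 4 N libraries. The lowest EY library was thus above 50 TPM and the highest N library below 2 TPM, and the lines kept apart from one another. Its log2 difference was 6.83 ± 0.81 (SE; limma, adjusted p = 0.000604).

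Hist1h2bf followed the same order of lines. It stood at 400.2 and 414 TPM in EY3960, 258 and 241 TPM in EY4028, 43.4 and 30.3 TPM in EY4174, and 1.00, 1.15, 1.84 and 1.61 TPM in N. EY and N did not overlap, and the pairs of libraries of each line lay close together. The log2 difference was 6.04 ± 0.81 (adjusted p = 0.00115).

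Hist1h2bb was the lowest of the 3. It was at 242 and 274 TPM in EY3960, 164 and 157 TPM in EY4028, 25.3 and 21.8 TPM in EY4174, and 0.890, 0.677, 0.505 and 0.963 TPM in N. All 6 EY libraries were again above all N libraries, with EY4174 the lowest of the EY lines. The log2 difference was 5.85 ± 0.79 (adjusted p = 0.00116), and the gene passed the filter with no N library at 1 TPM.

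These tests take libraries as replicates. With 1 mean per line, 3 EY lines against the single N line, none of the 3 genes was called (limma, adjusted p of 0.47 to 0.52, n = 3 and 1). With 1 TPM required in every library, Hist1h2bb and Hist1h2bm were not tested and Hist1h2bf was called (adjusted p = 0.0011).

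**Figure D2:**
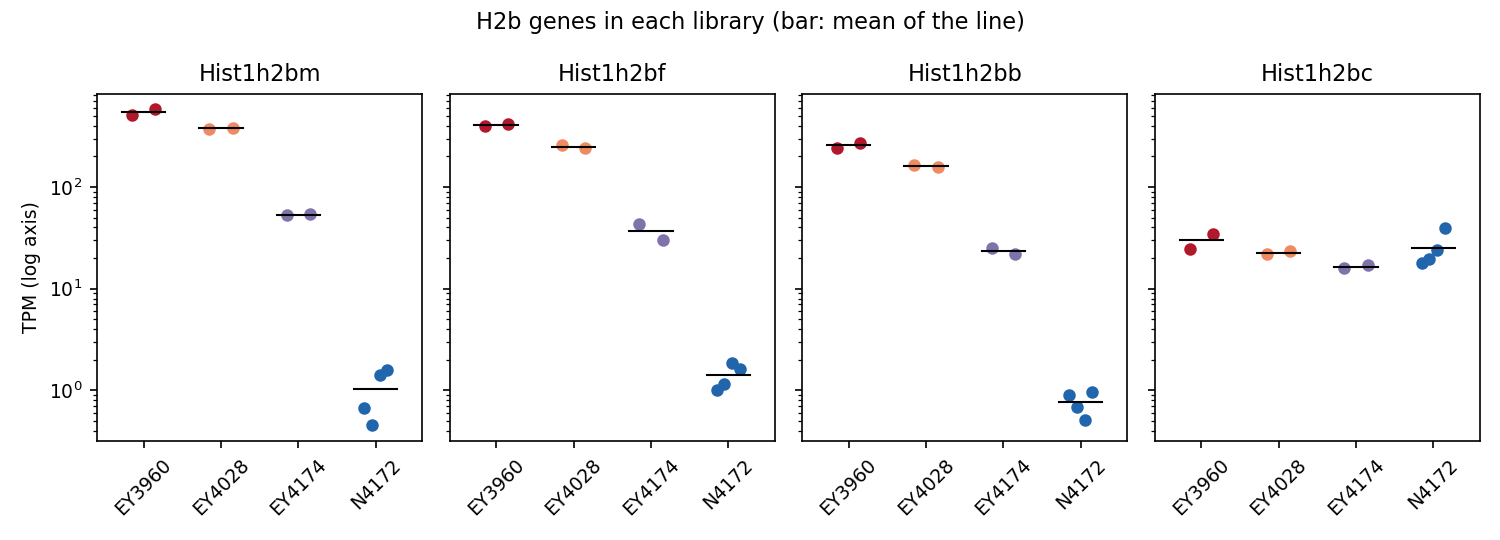
TPM (log axis) of Hist1h2bm, Hist1h2bf, Hist1h2bb and Hist1h2bc in each library, with points for libraries and bars for the mean of each line. The first 3 fall from EY3960 to EY4028 to EY4174 and lie at 0.453 to 1.84 TPM in N. Hist1h2bc has the same order of EY line means and overlaps between EY and N.

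Summed, the 3 genes came to 106 to 1270 TPM in EY and 2.28 to 4.15 TPM in N, a 221-fold ratio of the means. They made up 95.0 to 95.6% of all H2b TPM in EY3960 and EY4028, 76.5 and 68.7% in EY4174, and 5.46 to 8.82% in N. Among all rows ordered by TPM, Hist1h2bm stood between place 246 and place 2054 in the EY libraries and between 10423 and 12618 in N. Within EY the 3 genes kept similar proportions although their levels differed between lines. Hist1h2bb was 0.403 to 0.477 of Hist1h2bm, and Hist1h2bf was 0.559 to 0.820 of it.

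The 3 genes are not neighbours, and the genes beside them did not reach their levels in EY. In the RefSeq order on chromosome 13, Hist1h2bb lies between Hist1h3c (mean 6.11 TPM in EY, 2.66 in N) and Hist1h2ab (2.43 and 1.09 TPM). Hist1h2bf lies between Hist1h2bg (2.94 and 2.90 TPM) and Hist1h2ad (1.24 and 0.899 TPM). Hist1h2bm lies between Hist1h3h (6.40 and 3.65 TPM) and Hist1h4j (0.783 and 0.567 TPM). The 12 nearest neighbours, 2 on each side of each gene, had means between 0.567 and 6.40 TPM in either group.

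Their coding sequences are 381 bases long, as are those of all 17 H2b genes, and the 3 were not the most alike. Hist1h2bf and Hist1h2bm matched at 97.1% of bases, Hist1h2bb and Hist1h2bf at 94.8%, and Hist1h2bb and Hist1h2bm at 94.0%. Each was closer to another H2b gene, namely Hist1h2bf to Hist1h2bc (98.4%), Hist1h2bm to Hist1h2bc (97.9%) and Hist1h2bb to Hist1h2bq (95.3%). Of the 31-base stretches of their transcripts, 26.5% in Hist1h2bf, 41.5% in Hist1h2bm and 52.3% in Hist1h2bb occurred in no other gene of the annotation. How the authors' quantification divided reads that fit several H2b genes is not given in the sources used here, so the split of TPM among them is uncertain. Whether reads of the H2B-GFP reporter enter these rows was not tested, so the sum of the 3 genes is uncertain in that respect.

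Hist1h2bc, the gene closest to 2 of the 3, did not share their difference between EY and N. Its line means had their order, at 29.8, 22.6 and 16.5 TPM, and it was not called between the EY lines (limma, adjusted p = 0.20). Its values were 24.7 and 34.9 TPM in EY3960, 21.7 and 23.5 TPM in EY4028, 16.0 and 17.0 TPM in EY4174, and 17.9, 19.7, 24.0 and 39.6 TPM in N. EY and N overlapped, with a log2 difference of -0.11 ± 0.24 (adjusted p = 0.77). Without the 3 genes, the other 14 H2b genes summed to 47.2 ± 8.93 TPM in EY and 39.8 ± 9.84 TPM in N, a 1.19-fold ratio, and their ranges overlapped. Among these, Hist1h2bj (log2 difference 0.79 ± 0.28) and Hist1h2bk (0.80 ± 0.28) had adjusted p of 0.057 and 0.056, and Hist1h2bg, Hist1h2bn, Hist1h2bp and Hist1h2bq had log2 differences of 0.02 to 0.29. Hist2h2be, an H2b gene of the Hist2 cluster, was at 0.512 to 1.83 TPM in EY and 0.187 to 0.415 TPM in N, without overlap, with a log2 difference of 0.73 ± 0.19 (adjusted p = 0.018). The other 6 H2b genes were below the filter.

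H2A pairs with H2B in the nucleosome, and the H2a genes showed smaller differences. Their 15 levels summed to 65.2 ± 13.8 TPM in EY and 41.1 ± 6.65 TPM in N, a 1.59-fold ratio, and the lowest EY sum (50.6 TPM) was above the highest N sum (44.6 TPM). No H2a gene was called. Hist1h2ae (log2 difference 0.89 ± 0.14, adjusted p = 0.00097) and Hist1h2ai (0.86 ± 0.17, adjusted p = 0.0035) passed the adjusted p and fell short of the required difference. Hist1h2ae was at 4.59 to 7.14 TPM in EY and 2.18 to 3.24 TPM in N. By the mean over all 10 libraries the most abundant H2a genes were Hist1h2ag, at 6.06 to 17.3 TPM in EY and 3.59 to 8.14 TPM in N (log2 difference 0.62 ± 0.27, adjusted p = 0.11), and Hist1h2ap, at 5.55 to 13.2 and 4.47 to 9.54 TPM (0.47 ± 0.23, adjusted p = 0.16). Both overlapped between EY and N. In N alone Hist1h2af had the highest mean of the class, and it was at 7.23 ± 1.41 TPM in EY (log2 difference 0.10 ± 0.27, adjusted p = 0.83). Log2 differences below 0 were those of Hist3h2a (-0.23 ± 0.14) and Hist1h2al (-0.04 ± 0.45), the latter annotated as a pseudogene.

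The H3 genes, which encode the core histone deposited with H4, gave a summed level of 31.5 ± 4.74 TPM in EY and 17.5 ± 2.96 TPM in N, a 1.81-fold ratio without overlap (lowest EY 24.7 TPM, highest N 20.5 TPM). All 8 tested H3 genes had log2 differences above 0 and none was called. Hist1h3c came nearest, at 4.34 and 6.13 TPM in EY3960, 5.20 and 4.84 TPM in EY4028, 8.07 and 8.06 TPM in EY4174, and 1.96, 2.57, 2.74 and 3.36 TPM in N. Every EY library exceeded every N library, and the log2 difference was 0.94 ± 0.18 (adjusted p = 0.0028), just short of the required size. Hist1h3h, the most abundant H3 gene, was at 3.87 to 10.2 TPM in EY and 2.61 to 4.70 TPM in N (0.64 ± 0.22, adjusted p = 0.051).

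The H4 sum was 55.2 ± 14.1 TPM in EY and 44.6 ± 1.98 TPM in N, a 1.24-fold ratio with overlapping ranges. Hist1h4b was at 9.53 ± 3.63 TPM in EY and 4.35 ± 1.01 TPM in N (log2 difference 0.92 ± 0.26, adjusted p = 0.022), and Hist1h4n had the H4 difference closest to the threshold (1.00 ± 0.24, adjusted p = 0.012). Hist1h4m had the H4 difference of greatest size, and it was below 0 (-1.11 ± 0.50, adjusted p = 0.13). Linker histone H1 binds between nucleosomes, and its 4 genes were low, summing to 6.65 ± 1.58 TPM in EY and 6.61 ± 3.37 TPM in N. Hist1h1c, the only H1 gene tested, was at 3.94 to 6.74 TPM in EY and at 4.48, 3.10, 3.48 and 10.5 TPM in N, where replicate 4 was the high library (log2 difference 0.05 ± 0.26, adjusted p = 0.92, and 0.37 without N replicate 4). Hist1h1b, the next H1 gene, was at 0.403 to 1.88 TPM in EY and 0.565 to 0.939 TPM in N and was below the filter.

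**Figure D3:**
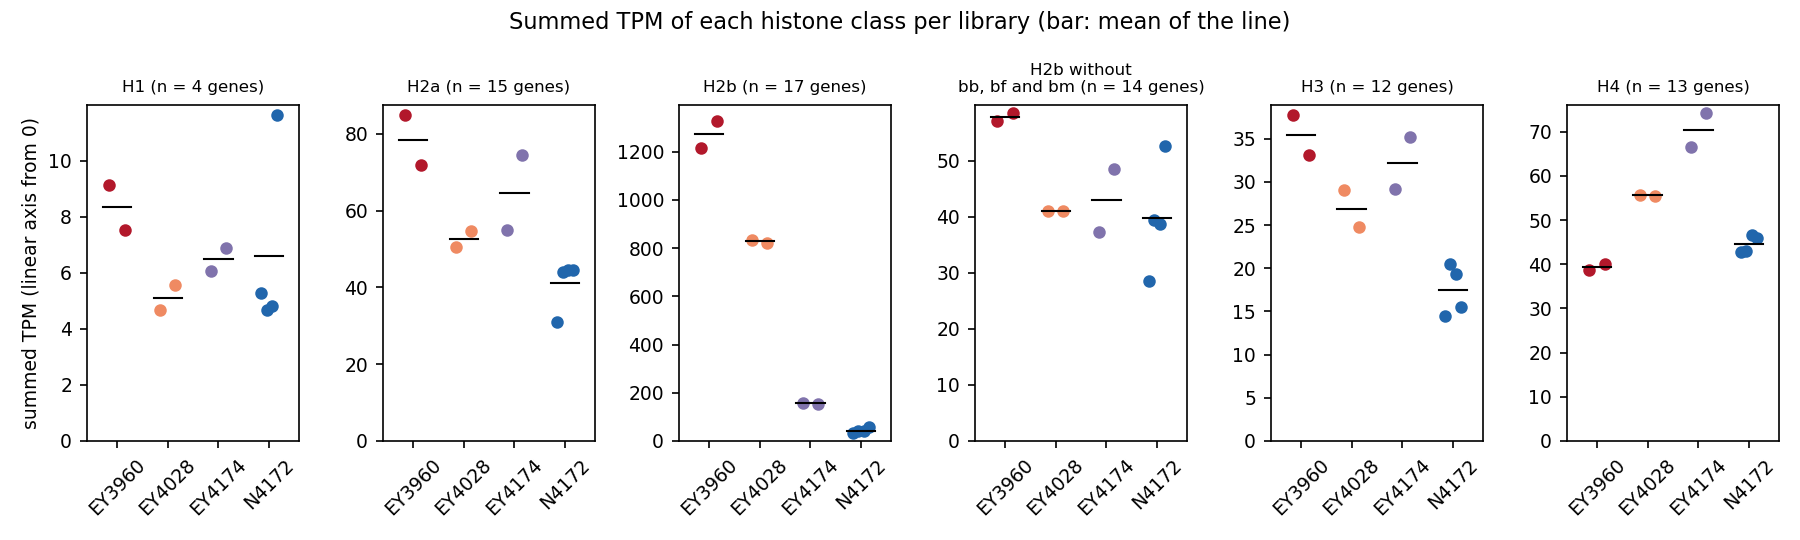
Summed TPM of each histone class in each library (linear axes from 0, each with its own scale), with bars for the mean of each line. H2b reaches 1329 TPM in EY3960 and 56.7 TPM at most in N, H2b without the 3 called genes overlaps between EY and N, and H2a and H3 lie higher in every EY library than in N.

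The question of how far the EY lines share these differences was addressed by comparing each line with N. These comparisons share the 4 N libraries, so their values are given side by side only. Hist1h2bb, Hist1h2bf and Hist1h2bm were called higher in each line. In EY3960 their log2 differences were 7.21 ± 0.13, 7.42 ± 0.16 and 8.12 ± 0.21 (adjusted p of 1.77e-11, 1.73e-10 and 1.61e-09). In EY4028 they were 6.53, 6.72 and 7.59, and in EY4174 they were 3.81, 3.97 and 4.79, with the same SE in each line and adjusted p of at most 1.74e-07.

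The other genes called in single lines are named after their values were seen. The limit set by the filter applies to the counts and p-values of single lines. Of the genes called, Hist1h2an, Hist1h2bb and Hist2h2be had no N library at 1 TPM. In EY3960, 11 of the 42 tested genes (26.2%) were called higher, against 3.96% of all genes tested, and 2 lower, against 3.08%. The 11 became 6 without EY3960 replicate 2, 6 with 1 TPM required in every library and 5 with a pseudocount of 5. Beside the 3 H2b genes the higher ones were Hist1h2ae (1.04), Hist1h2ai (1.23), Hist1h2ak (1.31), Hist1h2an (2.94), Hist1h2bk (1.38), Hist1h3i (1.65), Hist1h4b (1.37) and Hist2h2be (1.14), as log2 differences. The lower ones were Hist1h4i (-1.30 ± 0.14, adjusted p = 6.05e-05) and Hist1h4m (-1.88 ± 0.36, adjusted p = 0.0037), both of class H4. In EY4028, 4 genes (9.5%) were called higher, against 3.56% of all genes, and 0 lower, against 2.18%, the fourth being Hist1h2an (2.18 ± 0.22, adjusted p = 5.08e-05). In EY4174, 6 (14.3%) were called higher, against 2.01%, and 0 lower, against 2.94%. Beside the 3 these were Hist1h2ak (1.30), Hist1h2bj (1.32) and Hist1h3c (1.32). The median log2 difference of the 42 genes was 0.61 in EY3960, 0.26 in EY4028 and 0.59 in EY4174, beside 0.01, 0.09 and -0.01 over all genes tested.

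**Figure D4:**
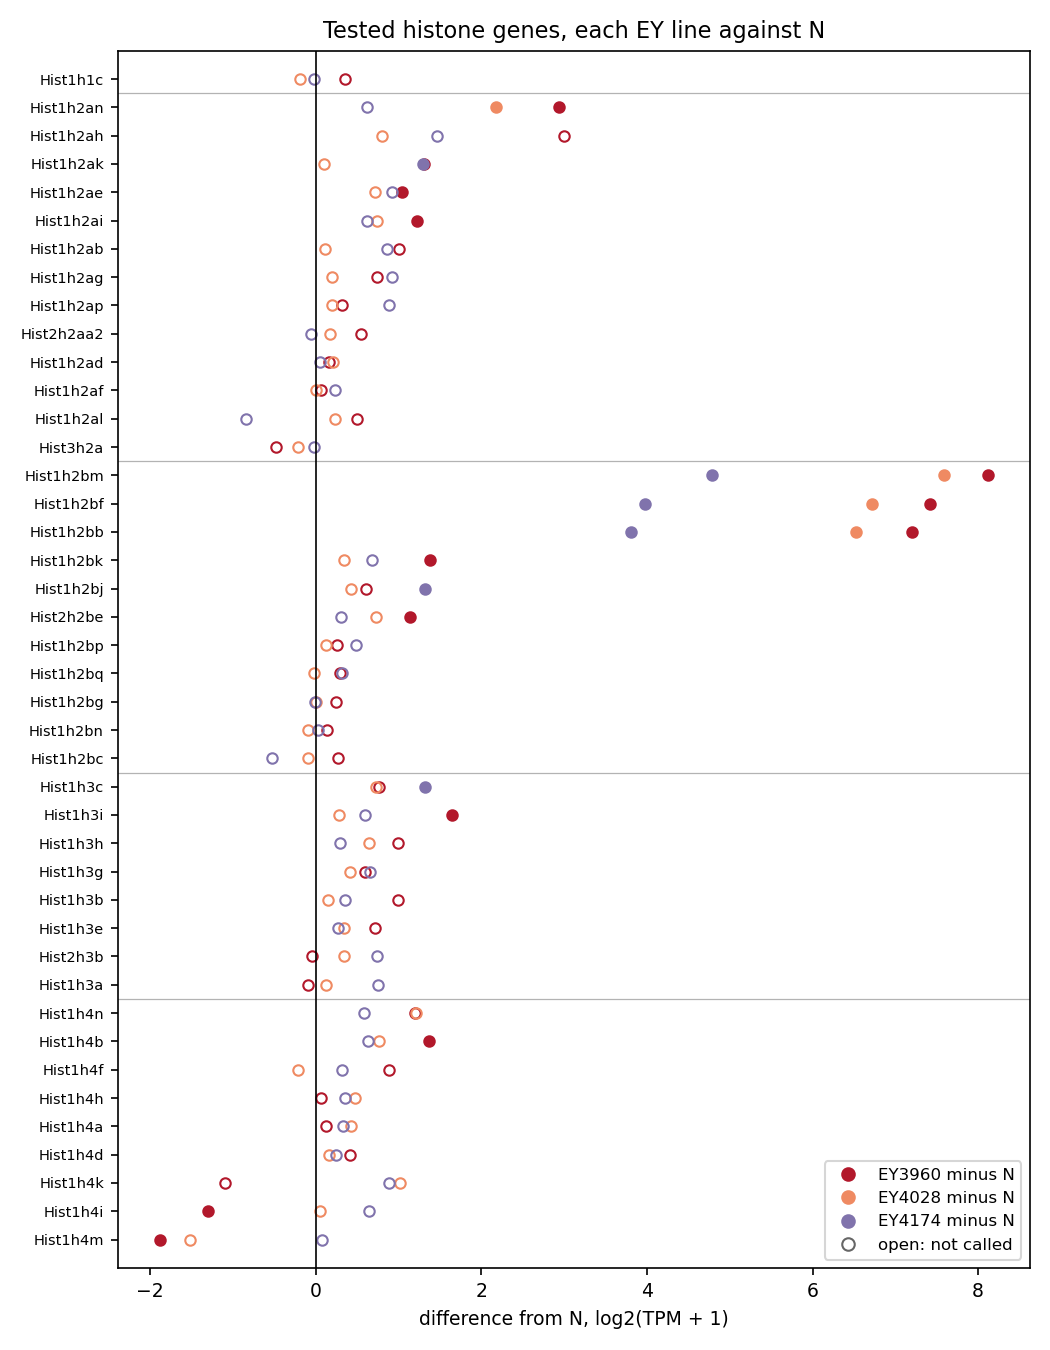
Difference from N on log2(TPM + 1) (x axis) of each of the 42 tested histone genes (y axis, grouped by class), with 1 point per EY line, filled where the gene was called in that line. Hist1h2bm, Hist1h2bf and Hist1h2bb lie at 3.81 to 8.12 and are filled in all lines, and Hist1h4m and Hist1h4i are filled below 0 for EY3960.

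Between the EY lines, by the F test of limma and a pairwise log2 difference over 1, 6 of the 42 genes (14.3%) differed, against 5.12% of all genes tested. The limit set by the filter applies to this count as well. Hist1h2bb, Hist1h2bf and Hist1h2bm differed by up to 3.40, 3.45 and 3.33 on the log2 scale (adjusted p of 1.34e-07, 1.21e-06 and 1.33e-05), with EY3960 highest and EY4174 lowest. The N libraries enter this fit of 4 line means through its estimate of the spread. Hist1h4i had the opposite order. Its values were 12.8 and 8.26 TPM in EY3960, 28.5 and 26.9 TPM in EY4028, 42.2 and 42.7 TPM in EY4174, and 26.5, 24.4, 27.6 and 28.7 TPM in N. EY3960 was thus below N, EY4174 above it and EY4028 level with it, and the largest difference between lines was 1.94 (adjusted p = 3.94e-05). Averaged over lines, EY and N had nearly the same mean of Hist1h4i (26.9 and 26.8 TPM).

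The H2a genes Hist1h2an and Hist1h2ak also differed between the lines, each in its own order. Hist1h2an was at 8.99 and 6.57 TPM in EY3960, 3.10 and 5.36 TPM in EY4028, 0.496 and 1.02 TPM in EY4174, and at most 0.298 TPM in N, where 2 libraries were listed at 0. Its line means had the order of those of the 3 H2b genes at a far lower level, with a largest difference of 2.32 (adjusted p = 0.00035). Hist1h2ak was at 3.25 and 3.72 TPM in EY3960, 0.887 and 0.993 TPM in EY4028, 2.67 and 4.43 TPM in EY4174, and 0.541 to 1.21 TPM in N. EY4028 was within the range of N and the other two lines were above it, and the largest difference was 1.21 (adjusted p = 0.0061). Of their 31-base stretches 11.0% and 30.0% occurred in no other gene, so their values are uncertain in the same way. Hist1h4m, called lower in EY3960 and not called between the lines (adjusted p = 0.020), was listed at 0 in both EY3960 libraries, at 0 and 0.667 TPM in EY4028, 1.69 and 4.62 TPM in EY4174, and 1.62 to 4.78 TPM in N. Only 8.3% of its 31-base stretches were its own.

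**Figure D5:**
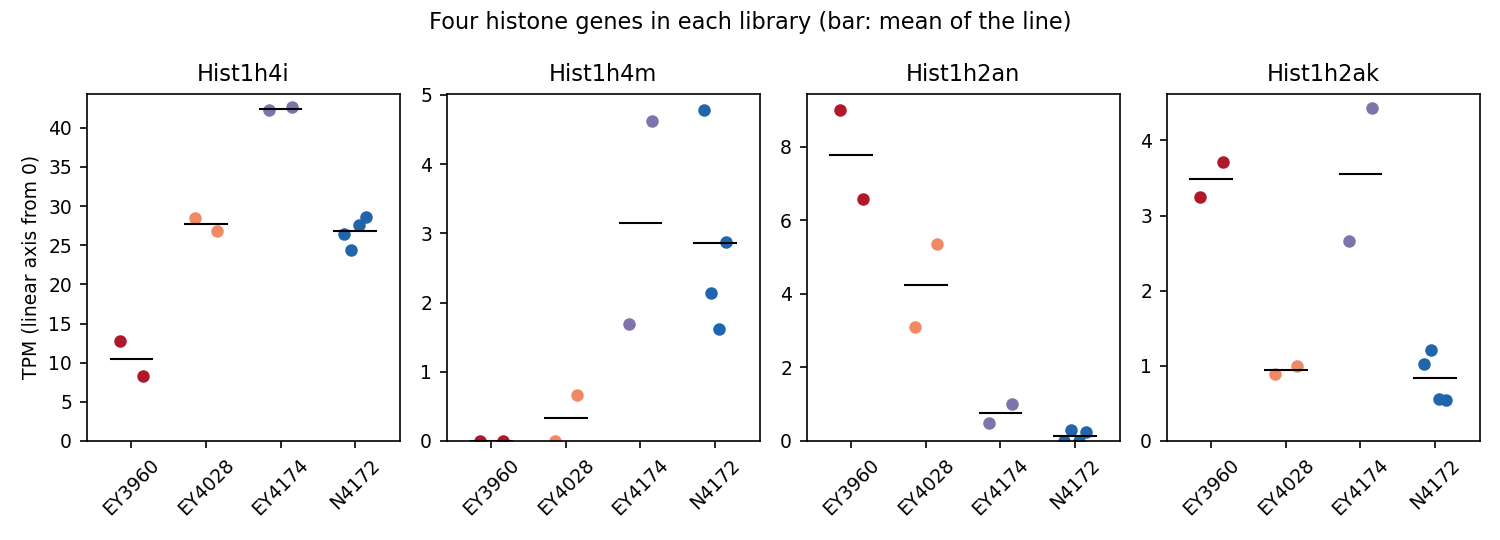
TPM (linear axes from 0) of Hist1h4i, Hist1h4m, Hist1h2an and Hist1h2ak in each library, with bars for the mean of each line. Hist1h4i runs from 8.26 TPM in EY3960 to 42.7 TPM in EY4174 with N between, Hist1h2an has the opposite order among the EY lines, and Hist1h2ak is low in EY4028 and N.

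Levels were also set beside the annotated 3′ ends. The 21 genes whose transcript ends within 100 bases after the stem-loop had a median of the mean levels of 1.73 TPM in N and 4.21 TPM in EY, and the 3 called genes are among them. The 22 whose transcript runs on had medians of 0.518 and 0.770 TPM, and the 18 with no stem-loop in the annotation 1.03 and 3.12 TPM. The 2 highest genes in N fell outside the first group, Hist1h4i in the second and Hist1h2bc in the last, whereas the highest of the first group in N was Hist1h2ap at 6.37 TPM. Median log2 differences were 0.59, 0.18 and 0.49 over the 20, 8 and 14 tested genes of the groups. These are descriptions of annotated ends, since the ends of the RNA in these libraries were not measured. TPM is also scaled by transcript length, and annotated lengths reached 630 bases in the first group and 7425 in the second. In the last group they ran from 312 bases (Hist1h4k) to 2620 (Hist2h2be). Those of Hist1h2bl, Hist1h2bn and Hist2h2bb were 381 bases, the length of the H2b coding sequence alone. For such transcripts the annotation cannot show whether a stem-loop follows, so the last group is not a class of 3′ ends. What this does to the medians was not tested.

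Genes that make, process and use histone transcripts were set beside all genes tested, of which 1.85% were called higher and 1.70% lower in EY. At these shares, an absence of calls in lists of this length says little about the lists. None of the 22 genes of histone mRNA processing was called in EY against N, and their log2 differences ran from -0.41 to 0.43 with a median of 0.04. Slbp, which encodes the stem-loop binding protein, was at 80.4 to 89.0 TPM in EY and 74.3 to 96.0 TPM in N (log2 difference 0.01 ± 0.08, adjusted p = 0.92). Cstf1, a cleavage stimulation factor subunit, was the gene of this list called lower in EY3960 (-1.03, adjusted p = 0.00058), against 3.08% of all genes tested. None of the 11 tested genes of histone gene transcription was called, and 6 had log2 differences above 0. Npat, the S phase coactivator of histone genes, was at 7.81 to 14.0 TPM in EY and 14.0 to 16.4 TPM in N (-0.37 ± 0.13, adjusted p = 0.067). Nfyc was at 54.6 to 76.6 TPM in EY and 41.1 to 48.8 TPM in N (0.47 ± 0.11, adjusted p = 0.0074). E2f1 had a log2 difference of 0.63 ± 0.18 (adjusted p = 0.027), and of 0.96 in EY3960 (adjusted p = 0.00026). No gene was called among the 10 tested of the poly(A) tail and nuclear RNA decay or the 23 of histone chaperones and S phase chromatin assembly. The same held for the 30 of S phase and G1/S. Median log2 differences of these lists were -0.04, 0.04 and 0.04. Summed, the S phase and G1/S genes were at 2232 to 2309 TPM in EY and 2160 to 2418 TPM in N.

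Variant histones are mostly made outside S phase as well, from polyadenylated transcripts, and their levels here ran from at most 0.436 TPM for H1fx to between 738 and 892 TPM for H2afz. The 11 variant genes summed to 2212 to 2464 TPM in EY and 2491 to 2648 TPM in N, without overlap. Of the 10 tested, 8 had log2 differences below 0, and 1 was called lower, against 1.70% of all genes tested. H2afy2, which encodes macroH2A2, a variant tied to silenced chromatin, was at 1.41 and 1.65 TPM in EY3960, 1.92 and 2.02 TPM in EY4028, 3.82 and 3.91 TPM in EY4174, and 6.57, 5.64, 6.56 and 6.89 TPM in N. It was lower in all EY libraries (-1.16 ± 0.21, adjusted p = 0.0021) and lowest in the line where the 3 H2b genes were highest. H2afj, an H2A variant, had a log2 difference of 0.67 ± 0.15 (adjusted p = 0.0069) and H3f3b, which encodes H3.3, one of -0.32 ± 0.07 (adjusted p = 0.0065). H2afy, which encodes macroH2A1, had one of -0.38 ± 0.08 (adjusted p = 0.0061), and all 3 were short of the required size.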

How the data were processed

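Libraries were made from poly(A) RNA of the cultures with random-primed cDNA. The authors deposited 1 table of TPM (a length-scaled share of each library's transcripts), with 18586 rows named by gene symbol and 10 library columns. The submitters' processing notes name STAR 2.7.9, SAMtools 1.7, HTSeq 0.13.5, DESeq2 1.34.0 and GRCm39, and the methods describe TPM only from Kallisto against a human transcriptome. Which step made the deposited TPM is not given in the sources used here. Spreadsheet dates stood in place of 20 symbols, and 2 symbols were on 2 rows.

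From the TPM, log2(TPM + 1) was fitted with limma 3.58.1 (R 4.3.3, trend and robust options) for genes reaching 1 TPM in 4 or more libraries. All comparisons adjusted p over all genes tested, and every adjusted p given is limma's. EY was compared with N, each EY line with N in a fit of 4 line means, and the EY lines with one another by the F test. Class sums are descriptions with no test. The fits were tested on simulated data. Sequences are from GENCODE M21 and RefSeq GRCm38.p6, a different build from the notes'. Histone genes described in full were those called in EY against N or between EY lines and the 2 highest of each class. The genes, lists and thresholds were chosen with earlier results of these data known. Alternatives varied the pseudocount, filter, scaling, limma options, blocking, and the libraries and lines left out.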

Additional observations from a re-analysis of the deposited data

Results flagged for a closer look

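Among 18 sets of 4 N values examined for a library far from the others, 2 had one, where chance gives about 0.9. The H1 sum was 11.6 TPM in N replicate 4 and 4.66 to 5.30 TPM in the other N libraries, and most of it was Hist1h1c at 10.5 TPM. The H2a sum was 31.1 TPM in N replicate 1 and 44.1 to 44.6 TPM in the others.

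For 6 histone genes the difference from N depended on the EY line, by the F test between lines (limma). The largest differences between lines were 1.21 for Hist1h2ak, 2.32 for Hist1h2an, 3.40 for Hist1h2bb, 3.45 for Hist1h2bf, 3.33 for Hist1h2bm and 1.94 for Hist1h4i on the log2 scale, with adjusted p of 0.0061 for Hist1h2ak and at most 0.00035 for the others. For Hist1h2bb, Hist1h2bf and Hist1h2bm the lines differed in size and not in direction. Hist1h4i was lower than N in EY3960 and higher than N in EY4174, where its log2 difference of 0.65 ± 0.14 (limma, adjusted p = 0.0064) was short of the required size.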

How the results depend on the processing

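Hist1h2bb, Hist1h2bf and Hist1h2bm were called higher in EY in every alternative except 3. When 1 TPM was required in every library, Hist1h2bb and Hist1h2bm were not tested and 1 histone gene, Hist1h2bf, was called. A fit to 1 mean per line (4 values, 2 residual degrees of freedom) called 0 histone genes and 2 genes in all, with adjusted p of 0.47 to 0.52 for the 3 genes. With sample numbers as a replicate block, 0 histone genes and 221 genes were called in place of 413, the 3 genes having log2 differences of 5.82 to 7.17 and adjusted p of 0.023 to 0.039. N replicates 3 and 4 have no EY partner in that fit. The numbers do not pair the libraries, since the correlations of replicate 1 minus replicate 2 between lines were -0.15 to 0.05, and the cause of the lost calls was not tested. With the line as a random block the 3 genes were called (adjusted p of 0.0050 to 0.0084), and 203 genes in all. A pseudocount of 0.1 gave 7 histone genes, adding Hist1h2ae, Hist1h2ai, Hist1h2an and Hist1h3c. Leaving out line EY4028 gave 5 called higher, and leaving out EY4174 gave 6 higher and 1 lower, Hist1h4m. All genes called in EY against N were 147 with a pseudocount of 5 and 216 with 1 TPM required in every library.

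For the single lines, a pseudocount of 5 gave 336 genes in EY3960, 282 in EY4028, 223 in EY4174 and 300 between lines, and 1 TPM in every library gave 455, 371, 317 and 350. Histone genes called higher were then 5 and 6 in EY3960, with 1 lower in each, 2 in EY4028 under the filter, and 3 in EY4174 under both, and 2 differed between lines under the filter. In EY4028, 1 histone gene, Hist1h4m, was called lower with a pseudocount of 0.1 or after rescaling without mitochondrial genes.

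Leaving out 1 library at a time gave 3 to 5 histone genes called higher in EY, the 5 without EY4174 replicate 1, and 6 to 11 higher and 1 to 2 lower in EY3960, the 6 without EY3960 replicate 2. It gave 4 to 7 in EY4174 and 0 to 1 lower in EY4028. The log2 difference of Hist1h4i ran from -0.37 to 0.0756 and was 0.35 without line EY3960. That of Hist1h1c ran from -0.12 to 0.37, the highest without N replicate 4, and was -0.11 without line EY3960. Class sums, as mean log2 differences of EY minus N, moved by less than the SD of the log2 sums of the EY libraries under both scalings and each library left out, though that of H1 went from 0.09 to 0.40 without N replicate 4 and was -0.04 at the lowest. Depth is not known, so differences of genes near 1 TPM are the least certain.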
